A study of Mus musculus with 6 samples.

Results

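The 9 genes described here mark B lineage cells: Ms4a1, Cd79a, Cd79b, Cr2 and Cxcr5 for the B cells of lymphoid follicles, and Pou2af1, Mzb1, Derl3 and Tnfrsf17 for plasma cells. They were taken by name from the 38561 Ensembl genes in the count tables, and all 9 were present and passed the filter on low counts. RNA-Seq had been made from small intestinal mucosa of C57BL/6J mice aged 8 to 12 weeks, in 6 libraries. The 3 libraries labelled Rbm47-IKO are, by the labels and the methods, from mice with intestinal deletion of Rbm47, which encodes an RNA-binding protein, by the constitutive Vil1-Cre transgene, which is active in intestinal epithelium. The 3 control libraries are labelled wt, and the study's methods describe its controls as floxed Rbm47 fl/fl mice without that deletion. Each library is a pool of RNA from 3 mice of both sexes by the labels (the methods allow for a mouse more in some pools), after oligo(dT) selection, so that differences between single mice cannot be seen and p-values measure only the spread between pools.

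B cells of the gut gather in follicles, chiefly those of Peyer's patches and of smaller isolated follicles. They bind antigen with a B cell receptor, signal through its CD79 chains, and are drawn into the follicle by the chemokine Cxcl13 through the receptor Cxcr5. After activation, many become plasma cells, which leave for the lamina propria and secrete large amounts of IgA, with an enlarged endoplasmic reticulum that folds, assembles and checks the antibody chains.

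The libraries held 31560320 to 38951830 counts on genes. Values below are normalized CPM (counts scaled to the TMM-adjusted library size), and log2 fold changes are the labelled Rbm47-IKO group minus control from edgeR's quasi-likelihood fit, with p adjusted by Benjamini-Hochberg over all 16425 genes tested and 0.05 or less as the threshold. The targeted gene did not follow the labels: Rbm47 stood at 603, 625 and 620 CPM in the pools labelled Rbm47-IKO and at 460, 450 and 472 CPM in the controls. Its log2 fold change was 0.42 (SE 0.10, edgeR adjusted p = 0.0751). No pool labelled Rbm47-IKO was below a control pool for Rbm47, so every direction below is between the libraries as they are labelled. Whether these reads come from outside the deleted part of the gene was not tested. Epcam and Vil1, which mark intestinal epithelium, had at least 2190 and 3650 CPM in every pool, and 6 smooth muscle genes ranged widely, from 90.7 summed CPM in control pool 1 to 3302 in labelled Rbm47-IKO pool 3.

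Labelled Rbm47-IKO pool 1 stood apart from the others in B lineage genes. The summed level of the follicle members in it was 4.53 CPM, which is 0.310 of the mean of the other 2 pools of its label. It was the lowest of the 6 pools in 8 of the 9 members, Derl3 being the exception. Control pool 3 was the highest in 7 of the 9, and both held at once in 7, where 2.75% of all genes tested had that order. The log2 fold change of each member and the median of each list are therefore given with and without labelled Rbm47-IKO pool 1. That pool was picked from these same values, so a rise of the members' log2 fold changes without it follows from the choice. Without control pool 3 instead, the median log2 fold change was -0.6 over the follicle members and -0.2 over the plasma members.

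All 9 members had a log2 fold change below 0, and none passed the test: 0 of 9 were called by edgeR, where 2.70% of all genes tested were called in either direction (238 higher and 205 lower). At an unadjusted p under 0.05, edgeR found 0 of 9 against a background of 16.8%. DESeq2 gave an adjusted p to 8 of the 9 and called 0 of them against 8.39% of all genes. Its unadjusted p was under 0.05 for 2 of 9 members, Pou2af1 and Cr2, and for 2674 genes in all. limma-voom called 0 of 9 against 2.62%. Of the members, Pou2af1 alone had an unadjusted limma-voom p under 0.05, as did 2772 of the 16425 genes tested. In 3 of 9 members (Cd79a, Cd79b and Pou2af1) every labelled Rbm47-IKO pool was below every control pool, where 11.6% of all genes had that order. The median log2 fold change was -0.81 over the 5 follicle members and -0.37 over the 4 plasma members, beside -0.006 over all genes tested. Without labelled Rbm47-IKO pool 1 these medians were -0.47 and -0.06. In bulk RNA, fewer cells of a type and less RNA per cell cannot be told apart.

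**Figure D1:**
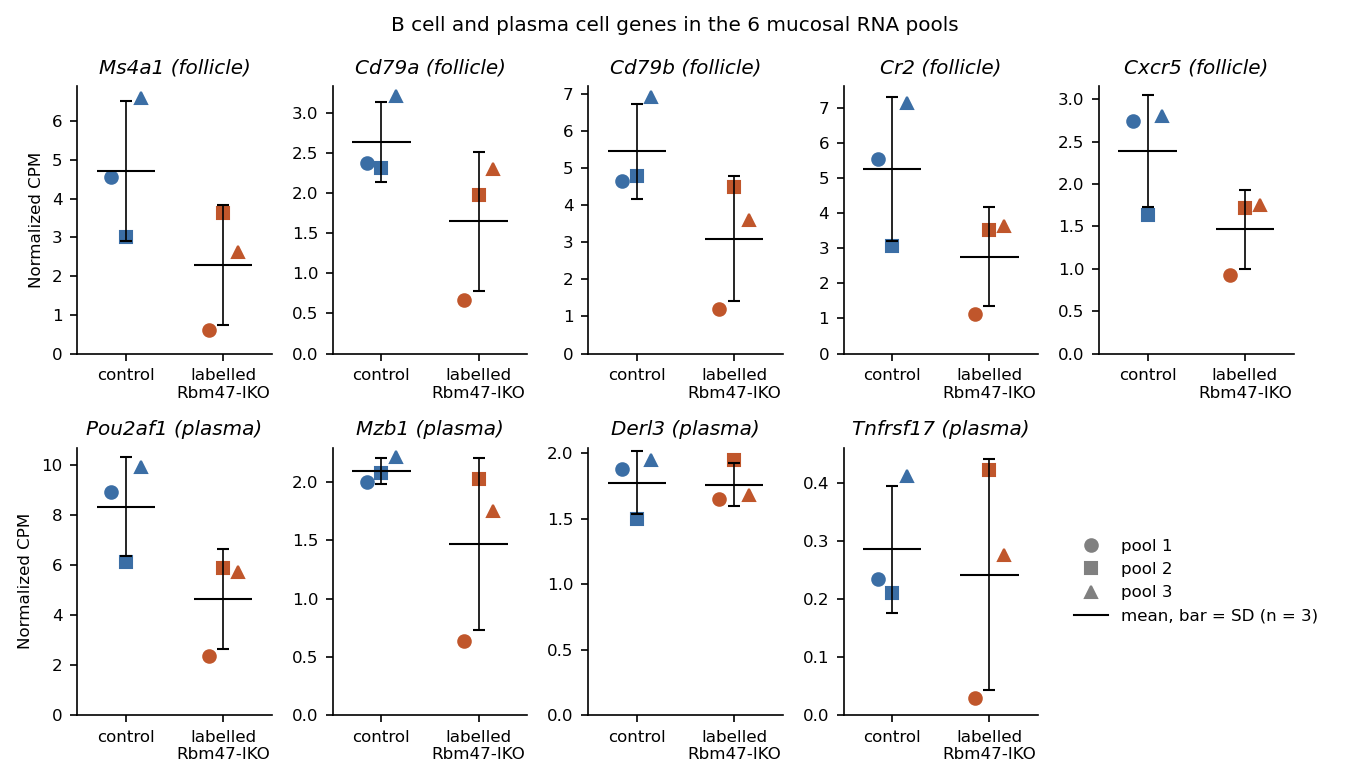
Normalized CPM of each member in the 3 control pools and the 3 labelled Rbm47-IKO pools, with the pool number as the symbol, the mean as a line and the SD as a bar (n = 3 pools). The lowest point of the labelled Rbm47-IKO pools is pool 1 in every member; for Ms4a1 it lies at 0.607 CPM against 3.64 and 2.63 CPM in the other pools of that label.

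Of the 9 members, 5 had an entry in the RefSeq table of promoter windows (GRCm38.p6): Cr2, Cd79a, Pou2af1, Derl3 and Tnfrsf17. Each window runs from 250 bases before the RefSeq start to 50 after it, and that start can differ from the gene's start in the count tables, as it does for Cd79a. Both strands were searched for the octamer ATTTGCAT, which Pou2af1's partner transcription factors bind and which 1.74% of 32851 promoters hold, for the EBF1 core TCCCNNGGG (6.56%), and for the XBP1 element TGACGTGG (0.676%). The ER stress response element, CCAAT and CCACG with 9 bases between them, was added after these sequences had been read, and 0.119% of promoters hold it. The octamer and the EBF1 core were in 0 of the 5 windows. The XBP1 element was in the Pou2af1 window, beginning 61 bases before the RefSeq start, and the ER stress response element in the Derl3 window, on its reverse strand, beginning 156 bases before the start. Cr2, Cd79a and Tnfrsf17 held none of the 4. A match of letters is not a bound site, and no match says only that these letters are not in the window. The sequences shown are for the member with the lowest p, for the member that did not follow the others across pools, and, for comparison, for a B cell receptor chain. Their windows are chr9:51213440-51213739 on the plus strand (Pou2af1), chr10:75893148-75893447 on the plus strand (Derl3) and chr7:24897247-24897546 on the plus strand (Cd79a), with the matched letters in capitals.
Pou2af1: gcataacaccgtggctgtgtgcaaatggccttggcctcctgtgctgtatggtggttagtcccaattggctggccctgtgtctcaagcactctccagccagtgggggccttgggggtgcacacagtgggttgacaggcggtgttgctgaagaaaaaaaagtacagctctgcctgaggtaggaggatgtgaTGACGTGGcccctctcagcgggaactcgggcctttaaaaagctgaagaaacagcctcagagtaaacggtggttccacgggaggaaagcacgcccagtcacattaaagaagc
Derl3: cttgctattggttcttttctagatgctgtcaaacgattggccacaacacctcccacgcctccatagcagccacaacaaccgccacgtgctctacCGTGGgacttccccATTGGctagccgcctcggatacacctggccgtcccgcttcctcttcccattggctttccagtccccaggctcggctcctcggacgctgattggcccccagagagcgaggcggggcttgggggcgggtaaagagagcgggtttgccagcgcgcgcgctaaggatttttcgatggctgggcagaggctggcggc
Cd79a: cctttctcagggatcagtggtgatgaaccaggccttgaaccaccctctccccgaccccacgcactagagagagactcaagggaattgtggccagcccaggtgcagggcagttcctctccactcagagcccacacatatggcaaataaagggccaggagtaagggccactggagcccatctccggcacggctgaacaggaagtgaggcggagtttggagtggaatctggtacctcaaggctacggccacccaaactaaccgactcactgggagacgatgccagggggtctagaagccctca

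Ms4a1, which encodes the B cell surface protein CD20, lies on the minus strand of chromosome 19 (11250603 to 11266151, GRCm38). It had 0.607, 3.64 and 2.63 CPM in labelled Rbm47-IKO pools 1, 2 and 3 and 4.56, 3.00 and 6.61 CPM in control pools 1, 2 and 3. Labelled Rbm47-IKO pool 1 was below all other pools, while pool 2 of that label was above control pool 2, so the groups overlapped. The means were 2.29 ± 1.55 and 4.73 ± 1.81 CPM (SD, n = 3), with a log2 fold change of -1.04 (SE 0.59, edgeR adjusted p = 0.445), or -0.59 without labelled Rbm47-IKO pool 1. The counts behind the lowest and highest pools were 21 and 241. Their exact 95% Poisson intervals, which cover counting error only, were 13.0 to 32.1 and 212 to 273.

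Cd79a and Cd79b encode the signalling chains of the B cell receptor. Cd79a (chromosome 7, 24897381 to 24902197) had 0.664, 1.98 and 2.30 CPM in the labelled Rbm47-IKO pools and 2.38, 2.32 and 3.21 CPM in the controls. The groups did not overlap, but the gap between the highest labelled Rbm47-IKO pool and the lowest control pool, 2.30 against 2.32 CPM, was narrow. The log2 fold change was -0.68 (SE 0.45, edgeR adjusted p = 0.523), and -0.30 without labelled Rbm47-IKO pool 1. Cd79b (chromosome 11, 106311341 to 106314762) had 1.21, 4.49 and 3.61 CPM against 4.65, 4.80 and 6.94 CPM. The groups did not overlap, with labelled Rbm47-IKO pool 2 just under control pools 1 and 2 and pool 3 further below. Its log2 fold change was -0.81 (SE 0.45, edgeR adjusted p = 0.428), or -0.43 without labelled Rbm47-IKO pool 1. Both chains thus had the same order of groups, and neither passed the test.

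Cr2, the complement receptor that B cells and follicular dendritic cells carry, lies on chromosome 1 (195136811 to 195176715). Its levels were 1.13, 3.51 and 3.64 CPM in the labelled Rbm47-IKO pools and 5.56, 3.08 and 7.16 CPM in controls. Control pool 2 was below labelled Rbm47-IKO pools 2 and 3, so the groups overlapped. The log2 fold change was -0.93 (SE 0.48, edgeR adjusted p = 0.393), and -0.56 without labelled Rbm47-IKO pool 1. Cxcr5, the receptor that guides B cells into follicles (chromosome 9, 44511788 to 44556391), had 0.924, 1.72 and 1.75 CPM against 2.74, 1.63 and 2.80 CPM. The same control pool 2 was again under labelled Rbm47-IKO pools 2 and 3. Its log2 fold change was -0.71 (SE 0.36, edgeR adjusted p = 0.384), or -0.47 without labelled Rbm47-IKO pool 1.

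Pou2af1, a coactivator that B cells need for octamer-driven transcription and that is also present in plasma cells (chromosome 9, 51213690 to 51240079), had the lowest p of the 9. It stood at 2.34, 5.86 and 5.70 CPM in the labelled Rbm47-IKO pools and 8.91, 6.11 and 9.93 CPM in the controls. Every labelled Rbm47-IKO pool was below every control pool, the nearest being 5.86 and 6.11 CPM. The means were 4.63 ± 1.99 and 8.32 ± 1.98 CPM, a log2 fold change of -0.84 (SE 0.36), with an unadjusted edgeR p of 0.0508 and an adjusted p of 0.299. Without labelled Rbm47-IKO pool 1 the log2 fold change was -0.53. Its order of pools followed the follicle genes: the Pearson r of its log2 CPM with the mean of the follicle members over the 6 pools was 0.99.

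Mzb1, an endoplasmic reticulum protein that aids antibody assembly in B cells and plasma cells (chromosome 18, 35647266 to 35649367), had 0.635, 2.03 and 1.75 CPM in labelled Rbm47-IKO pools and 2.0, 2.08 and 2.22 CPM in controls. Only pool 1 was far from the controls, and pool 2 was above control pool 1. The log2 fold change of -0.51 (SE 0.42, edgeR adjusted p = 0.63) was -0.15 without labelled Rbm47-IKO pool 1. Derl3, which helps to remove misfolded proteins from the endoplasmic reticulum (chromosome 10, 75893398 to 75895941), had 1.65, 1.95 and 1.68 CPM against 1.88, 1.5 and 1.95 CPM. The groups overlapped throughout and labelled Rbm47-IKO pool 1 was not the lowest of the 6, control pool 2 being lower. The difference was -0.01 (SE 0.26, edgeR adjusted p = 0.99), with a 95% interval of -0.61 to 0.59, and was 0.03 without labelled Rbm47-IKO pool 1.

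Tnfrsf17, the receptor BCMA of plasma cells (chromosome 16, 11313812 to 11320074), was near the floor of 3 counts in some pools. It had 1, 16 and 9 counts in the labelled Rbm47-IKO pools and 8, 8 and 15 in the controls, and the single count has an exact 95% Poisson interval of 0.0253 to 5.57. The groups overlapped, and the log2 fold change of -0.23 (SE 0.74, edgeR adjusted p = 0.933) turned to 0.29 without labelled Rbm47-IKO pool 1. Pools 1 and 2 of that label, at 1 and 16 counts, differed by more than their counting intervals.

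On a per length scale, in CPM per kilobase of gene length in the controls, Cd79b was highest (3.82, range 3.25 to 4.85), with Pou2af1 next (3.24, range 2.38 to 3.87). Mzb1 (2.32), Ms4a1 (2.30) and Cd79a (1.81) followed, with Derl3 at 1.33, Cr2 at 0.849, Cxcr5 at 0.846 and Tnfrsf17 at 0.351. Neighbours in this order had overlapping ranges over the 3 control pools, and so did not differ beyond their spread, except that Cd79a (1.59 to 2.20) lay above Derl3 (1.12 to 1.46) and Cxcr5 (0.578 to 0.991) above Tnfrsf17 (0.259 to 0.505). In the labelled Rbm47-IKO pools Cd79b (2.17, range 0.848 to 3.14), Pou2af1 (1.81, range 0.912 to 2.28), Mzb1 (1.63, range 0.702 to 2.25), Derl3 (1.32, range 1.23 to 1.46), Cd79a (1.13, range 0.456 to 1.58) and Ms4a1 (1.12, range 0.295 to 1.77) all overlapped and had no order beyond their spread.

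**Figure D2:**
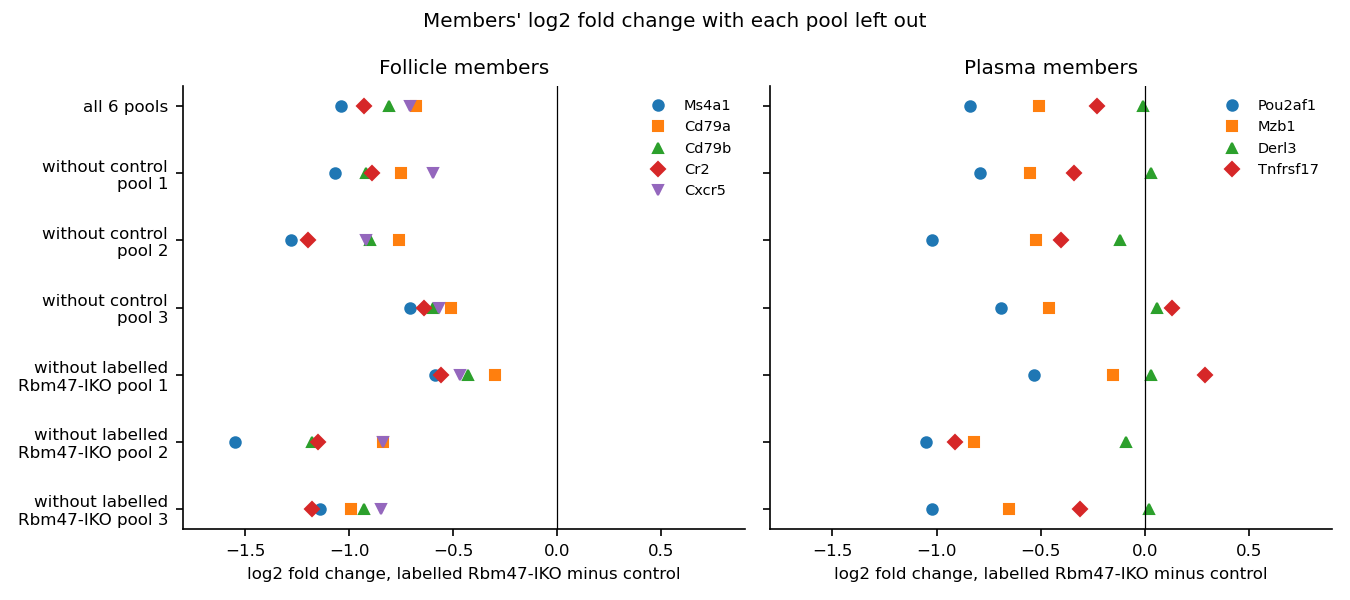
log2 fold change of each member (labelled Rbm47-IKO minus control) over all 6 pools and with each pool left out. Without labelled Rbm47-IKO pool 1 the follicle members moved toward 0, to between -0.59 and -0.30, and Tnfrsf17 passed it, to 0.29.

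Among 16 other genes of B cell receptor signalling, 13 had a log2 fold change below 0 (median -0.51, or -0.24 without labelled Rbm47-IKO pool 1), and the single gene that edgeR called, Plcg2, was higher. Plcg2, the phospholipase downstream of the receptor that other cells also use, had 83.5, 87.9 and 79.1 CPM against 43.1, 46.7 and 60.5 CPM, with every labelled Rbm47-IKO pool above every control and a log2 fold change of 0.74 (SE 0.14, edgeR adjusted p = 0.0423). DESeq2 and limma-voom also called it, with adjusted p of 0.000679 and 0.0413. With 1 pool left out, its log2 fold change ran from 0.64 to 0.9. Its edgeR adjusted p then ran from 0.0504 to 0.223, so that no such fit called it. Lyn and Syk, kinases of the same pathway that myeloid cells also hold, had log2 fold changes of -0.17 and -0.10.

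B lineage transcription factors had 7 of 8 below 0 (median -0.25, or -0.21 without labelled Rbm47-IKO pool 1), with 0 called by edgeR, DESeq2 or limma-voom and 1 at an unadjusted edgeR p under 0.05. Irf8, the most abundant of them and one that many immune cells use, had a log2 fold change of 0.49, with Ikzf3 at -0.26 and Bach2 at -0.06. In the germinal centre list 5 of 6 tested genes were below 0 (median -0.79, or -0.76 without labelled Rbm47-IKO pool 1), again with 0 called by any of these tools and 1 at an unadjusted edgeR p under 0.05. Bcl6, the main repressor of that cell state, had 0.31, Rgs13 -0.57 and Mybl1 -1.12 (edgeR adjusted p = 0.162).

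Among genes that organise follicles, 7 of 9 tested were below 0 (median -0.47, or -0.17 without labelled Rbm47-IKO pool 1), edgeR called 0 (1 at an unadjusted p under 0.05), limma-voom called 0 and DESeq2 called 1. Ltbr, Tnfsf13 and Tnfsf13b, which encode the lymphotoxin beta receptor and the B cell survival factors APRIL and BAFF, had log2 fold changes of 0.21, 0.00 and -0.47. Cxcl13, the ligand of Cxcr5, was singled out after its values were seen. It had 0.607, 1.29 and 0.949 CPM in the labelled Rbm47-IKO pools and 2.44, 2.45 and 3.32 CPM in controls, with no overlap. The log2 fold change was -1.52 (SE 0.35), with an adjusted p of 0.0686 by edgeR and 0.00589 by DESeq2. It ran from -1.81 to -1.28 when 1 pool was left out, and was -1.28 without labelled Rbm47-IKO pool 1.

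**Figure D3:**
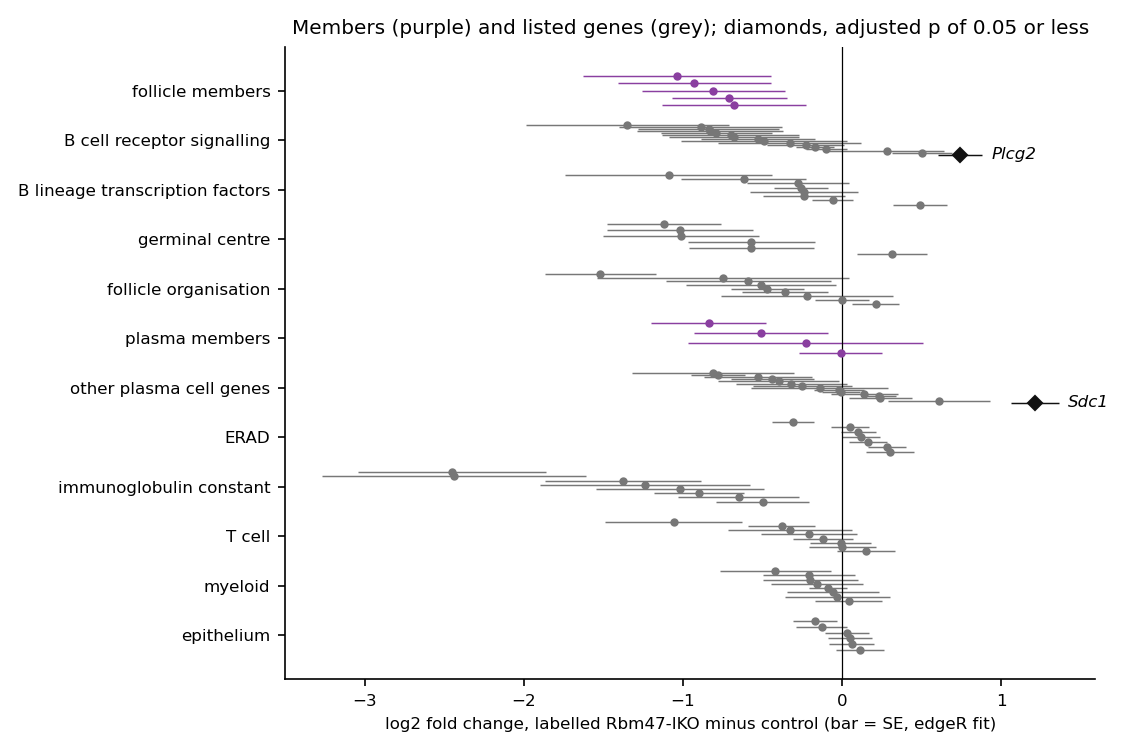
log2 fold change (labelled Rbm47-IKO minus control) with its SE for each tested gene of 12 lists, members in purple and genes called by edgeR as labelled diamonds. Plcg2 (0.74) and Sdc1 (1.21) are the called genes and both are higher, while the members lie between -1.04 and -0.01.

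Of 15 other plasma cell genes, 10 were below 0 (median -0.14, or -0.08 without labelled Rbm47-IKO pool 1) and edgeR called 1, Sdc1, which was higher. This gene, the surface proteoglycan syndecan-1 of plasma cells that intestinal epithelium also makes, had 146, 158 and 118 CPM against 52.9, 67.7 and 62.4 CPM and a log2 fold change of 1.21 (SE 0.15, edgeR adjusted p = 0.0119), and it was called in 3 of the 6 fits that left out 1 pool. DESeq2 also called Ell2, an elongation factor used in antibody secretion, as lower (log2 fold change -0.78, edgeR adjusted p = 0.062). Ell2 had 80.1, 69.9 and 70.7 CPM against 140, 94.4 and 143 CPM. Unlike in the members, labelled Rbm47-IKO pool 1 was the highest of its label, and which cells the Ell2 reads come from was not tested. Xbp1 and Txndc5, which serve protein folding in many secretory cells, had -0.01 and 0.23. Jchain, which joins IgA into dimers and was chosen after its values were seen, had 52.2, 97.2 and 86.9 CPM against 134, 79.7 and 108 CPM (log2 fold change -0.44, edgeR adjusted p = 0.468, and -0.22 without labelled Rbm47-IKO pool 1). Genes of endoplasmic reticulum associated degradation, the process Derl3 belongs to, had 1 of 7 below 0 (median 0.12, or 0.13 without labelled Rbm47-IKO pool 1), with 0 called by edgeR, DESeq2 or limma-voom and 2 at an unadjusted edgeR p under 0.05. Os9 stood at 0.28, Edem1 at -0.31 and Sel1l at 0.16.

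Immunoglobulin constant genes, the product of these cells, had 8 of 8 tested below 0 (median -1.13, or -0.86 without labelled Rbm47-IKO pool 1) with 0 called by edgeR (4 at an unadjusted p under 0.05), 0 by limma-voom and 3 by DESeq2 (Ighg2b, Ighg2c and Igkc). Igha, the IgA heavy chain, had 295, 532 and 544 CPM in labelled Rbm47-IKO pools and 870, 475 and 587 CPM in controls (log2 fold change -0.50, edgeR adjusted p = 0.466, and -0.26 without labelled Rbm47-IKO pool 1). Igkc, the kappa light chain, had 49.7, 103 and 104 CPM against 193, 143 and 144 CPM, without overlap (-0.90, adjusted p = 0.154, and -0.62 without labelled Rbm47-IKO pool 1). Ighg2b had 4.79, 10.6 and 7.99 CPM against 11.5, 60.2 and 56.1 CPM (-2.45, adjusted p = 0.0778, and -2.20 without labelled Rbm47-IKO pool 1). Near-identical constant genes can share reads, so values of single ones are uncertain.

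Labelled Rbm47-IKO pool 1 was low in the members and the antibody genes, and not in every list of B lineage genes. The ratio of its summed CPM to the mean of the other 2 pools of its label was 0.310 for the follicle members, 0.473 for the plasma members and 0.532 for the immunoglobulin constant genes. It was 0.911 for B cell receptor signalling, 1.13 for B lineage transcription factors, 1.08 for germinal centre genes, 1.0 for follicle organisation and 1.04 for other plasma cell genes, sums that the most abundant genes of each list set. That pool was the lowest of the 6 in 11 of 16, 4 of 8, 4 of 6, 6 of 9 and 5 of 15 genes of these lists. Among other cell types the ratio was 1.09 for 8 T cell genes, 0.815 for 8 myeloid genes, 1.05 for 6 epithelial genes and 0.186 for 6 smooth muscle genes, which were at 3302 summed CPM in pool 3 of that label. Among single genes the ratio was 0.193 for Ms4a1, 0.299 for Cd79b, 0.336 for Mzb1 and 0.905 for Derl3. Summed T cell genes ranged over 49.7 to 57.9 CPM in the labelled Rbm47-IKO pools and 49.6 to 70.7 CPM in controls, and myeloid genes over 76.4 to 94.8 and 73.0 to 126 CPM. The T cell, myeloid, smooth muscle and epithelial lists held 0 genes called by edgeR, DESeq2 or limma-voom and 1, 0, 0 and 0 at an unadjusted edgeR p under 0.05, and 6 of 8, 7 of 8, 1 of 6 and 2 of 6 of their genes were below 0. Their medians were -0.17, -0.12, 0.37 and 0.04, and without labelled Rbm47-IKO pool 1 they were -0.14, -0.03, 0.81 and -0.01. Cd8a, Cd3g and Lck had log2 fold changes of 0.00, -0.12 and -0.01, and Csf1r, Itgax and C1qa 0.04, -0.09 and -0.03. Vil1, Krt20 and Epcam had -0.17, 0.03 and -0.13. Myh11, Acta2 and Actg2 had 0.63 (SE 1.17), 0.33 (SE 1.27) and -0.15 (SE 1.42), and with 1 pool left out they ran from -1.03 to 2.67, from -1.09 to 3.02 and from -1.99 to 2.94, so that none kept its direction. How much follicle tissue each pool held, and whether it accounts for these values, was not tested.

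**Figure D4:**
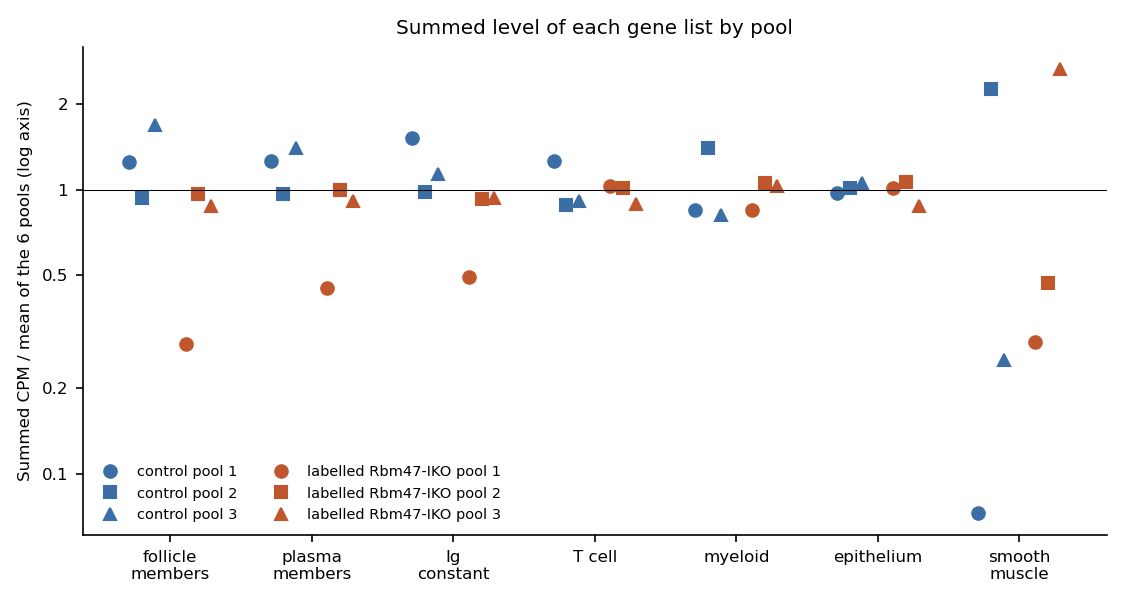
Summed CPM of each gene list in each pool, divided by the mean of the 6 pools, on a log axis. Labelled Rbm47-IKO pool 1 (circle) is the lowest in the follicle members, plasma members and immunoglobulin constant genes (4.53, 4.65 and 357 CPM), and not in T cell or epithelial genes.

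The epithelium that lies over follicles was represented by 7 genes, of which 6 were tested, 4 were below 0 (median -0.30, or -0.22 without labelled Rbm47-IKO pool 1) and 0 were called by edgeR, DESeq2 or limma-voom, with 2 at an unadjusted edgeR p under 0.05. Serpinb1a, Tnfrsf11a and Tnfaip2 had -0.39, 0.12 and 0.58. Gp2, a marker of the antigen-sampling M cells there that was chosen after its values were seen, had 8, 29 and 22 counts against 14, 28 and 43, and it was the single one of the 6 tested genes that was lowest in labelled Rbm47-IKO pool 1. The summed list had a ratio of 1.06 in that pool.

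Of the 13404 genes that had a mean of at least 1 CPM and were neither members nor immunoglobulin genes, the 6 most like each group of members across the 6 pools were named. For the mean log2 CPM of the follicle members they were Hvcn1 (Pearson r 0.997), a proton channel of B cells, Cd22 (0.995), an inhibitory coreceptor, Ltb (0.994), which encodes lymphotoxin beta, Bank1 (0.993), a B cell adaptor, Chst3 (0.990) and Parvg (0.988). For the plasma members they were Arhgap25 (0.998), Parvg (0.992), March1 (0.984), Irf4 (0.983), a transcription factor of plasma cell formation, Rcsd1 (0.982) and Tnfrsf13b (0.980), the receptor TACI. These correlations are a description over 6 shared libraries, and labelled Rbm47-IKO pool 1 was the lowest pool in each of these genes. Derl3 was the least like the other members, with r of 0.51 to the follicle mean, where Mzb1 had 0.95 and Tnfrsf17 had 0.90.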

How the data were processed

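Small intestinal mucosal RNA was compared between 3 pools labelled Rbm47_IKO and 3 labelled wt. For every pool the authors deposited the raw count of reads per gene, a CPM column (count scaled to the column total) and an RPKM column (CPM per kilobase). The deposited CPM and RPKM were recomputed from the counts, differed from them only by rounding and were not used further. STAR 2.5.1a, Subread, featureCounts 1.4.6-p5 and GRCm38 are named in the submitters' processing notes; strand use is not given in the sources used here. Symbols were given to 36639 genes from GENCODE. Genes past filterByExpr (16425) were normalized by TMM and tested with edgeR 4.0.16 in R 4.3.3; DESeq2 1.42.0, limma 3.58.1 (voom), other scalings and filters, removal of 251 immunoglobulin genes, the replicate block and leaving out each pool were alternatives. No member shares exon positions with another gene. No pools were identical. For groups of 3 and 3, the smallest p of an exact permutation test is 0.1. On simulated counts (16125 genes, 3 pools against 3) the test recovered 49.5% of 107 genes changed by 1 on the log2 scale and 75.6% of 86 changed by 2. The changed genes were drawn from genes of every abundance, with the spread typical of that abundance and no pool that stood apart. These shares therefore do not give the power for the members. The floor of 3 counts and the Poisson intervals cover counting error only. The members and lists were chosen with earlier results of these data known. Genes named were Rbm47, the members, called genes and the 3 most abundant of each list, and the 6 genes most like each member group, except those said to be chosen after their values were seen.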

Additional observations from a re-analysis of the deposited data

How the results depend on the processing

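No member was called under any of 8 alternative settings or with any 1 pool left out, and the lowest adjusted p of a member was 0.16 (Pou2af1). Of the members, 7 were below 0 in every such fit. Derl3 ran from -0.12 to 0.06 and Tnfrsf17 from -0.91 to 0.29 with 1 pool left out, and so changed direction; a filter of 1 CPM in 3 pools left Tnfrsf17 untested. The follicle median ran from -1.15 to -0.47 and the plasma median from -0.87 to -0.06 with 1 pool left out. With Pou2af1 counted among the follicle genes the medians were -0.83 (6 genes) and -0.23 (3 genes). Over all genes, 443 were called, 1243 by DESeq2, and 0 to 431 with 1 pool left out: 32, 0 and 119 without labelled Rbm47-IKO pools 1, 2 and 3 (1729 at an unadjusted p under 0.05 without pool 2) and 11 without control pool 3. The cause was not tested. With the replicate block, which fits pool numbers as pairs, 100 genes were called and no member was. Deviations of same-numbered pools from their group means correlated at 0.408, -0.003 and -0.277. The deviations of pools in a group depend on one another, so these values cannot decide whether same-numbered pools share a batch. Tnfrsf17 had the fewest counts of the members.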
